A study of Mus musculus with 13 samples.

Results

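The genes described are 10 members of the erythropoietin and Kit signalling pathways, namely Epor, Jak2, Stat5a, Stat5b, Cish, Socs2, Socs3, Bcl2l1, Pim1 and Kit, listed by name and found in all 3 sets of files among the 18582 gene symbols that the sets share. The cells assayed were F4/80+ cells sorted or selected from E13.5 mouse fetal liver (FL), F4/80 being the macrophage surface protein encoded by Adgre1. The bulk libraries form 4 groups of 3. EKLF+/+ cells are wild type, and EKLF-/- cells lack the erythroid transcription factor EKLF (gene Klf1). EKLF/GFP+ and EKLF/GFP- cells are wild-type cells that carry pEKLF-GFP, a transgene with GFP driven by the EKLF promoter, and were parted by whether they were green. A further wild-type library holds single cells. All samples carry the strain label C57BL/6, while the study's resource list gives a different background for the EKLF-null line, so strain and genotype may be mixed in that comparison. RNA of EKLF/GFP+ cells was isolated with another kit than RNA of the other sorted cells, so kit and group cannot be told apart. The study reports lower RNA integrity for EKLF/GFP+ cells than for EKLF+/+ and EKLF-/- cells, and names no value for EKLF/GFP- cells. The part of RNA integrity in levels and transcript shares was not tested. Bulk cells were sorted by flow cytometry, whereas the single cells were selected with magnetic beads from pooled littermate embryos of 1 mother and give no replicate. The selection was made with a peptide that blocks contacts between macrophages and erythroid cells. By the study's flow cytometry most, but not all, of the selected cells were F4/80+.

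Erythropoietin, a hormone made by fetal liver and later by kidney, binds the receptor Epor on erythroid progenitors, whose bound kinase Jak2 then phosphorylates Stat5a and Stat5b. Stat5 enters the nucleus and switches on genes that keep the cell alive, such as Bcl2l1 and Pim1, and genes that shut the signal off again, such as Cish and the Socs genes. Kit, the receptor for stem cell factor (Kitl), acts before and beside Epor in early progenitors, in mast cells and in blood stem cells, and is switched off as erythroblasts mature.

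The targeted gene matched its labels. Klf1 was at 305 to 376 CPM (a gene's reads relative to all reads on genes, scaled by edgeR's TMM factors) in EKLF+/+ libraries against 57.1 to 64.2 in EKLF-/- libraries, and at 87.3 to 101 CPM in EKLF/GFP+ against 28.6 to 45.7 in EKLF/GFP- libraries. Libraries held 10695514 to 15362161 reads on genes in the EKLF+/+ and EKLF-/- groups and 22721900 to 28735322 estimated counts in the EKLF/GFP groups. The 2 sets were prepared and quantified apart, so levels are compared only within a set. Each of the 10 genes passed the filter on low counts in both sets, and the lowest count of any of them in a library was 49 in the first set and 31 in the second.

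The promoters of 3 genes are shown, that of Epor because it differed most between EKLF/GFP+ and EKLF/GFP- cells, and those of Socs3 and Kit because these fell in EKLF-/- cells (for Kit, the first of 2 starts). Each sequence is the RefSeq promoter in GRCm38.p6, the 250 bases before the gene's start, read 5′ to 3′ on the gene's strand. Capitals mark matches, on either strand, to CCNCNCCC, the kind of pattern that EKLF binds. They also mark AGATAA, the kind that Gata1 binds, and TTCNNNGAA, the pattern of Stat5.
Epor, chr9:21963577-21963826, minus strand: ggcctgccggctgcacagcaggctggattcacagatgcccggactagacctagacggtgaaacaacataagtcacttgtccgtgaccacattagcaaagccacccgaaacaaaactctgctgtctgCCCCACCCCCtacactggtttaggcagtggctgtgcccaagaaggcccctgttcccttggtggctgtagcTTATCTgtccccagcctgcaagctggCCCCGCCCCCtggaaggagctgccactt
Socs3, chr11:117969367-117969616, minus strand: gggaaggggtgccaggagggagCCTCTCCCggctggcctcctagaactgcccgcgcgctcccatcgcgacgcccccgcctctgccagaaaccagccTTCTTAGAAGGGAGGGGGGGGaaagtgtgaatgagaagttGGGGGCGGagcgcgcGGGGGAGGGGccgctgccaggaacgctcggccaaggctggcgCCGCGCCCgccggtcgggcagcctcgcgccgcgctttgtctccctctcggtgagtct
Kit, chr5:75574737-75574986, plus strand: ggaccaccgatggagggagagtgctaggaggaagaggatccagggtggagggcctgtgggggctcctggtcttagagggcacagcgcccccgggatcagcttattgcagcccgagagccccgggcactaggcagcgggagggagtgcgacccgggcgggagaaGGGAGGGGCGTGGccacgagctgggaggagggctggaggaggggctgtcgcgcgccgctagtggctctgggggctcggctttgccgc
Promoter sequence was given for 9 of the 10 genes, in 15 windows, and Socs2 had none. CCNCNCCC occurred in 11 of the 15 windows and in 45.9% of all 32851 promoters. AGATAA occurred in 2 windows, those of Epor and of 1 start of Bcl2l1, and in 9.99% of all promoters. TTCNNNGAA occurred in 1 window, that of Socs3, and in 7.02% of all promoters, and it adjoins a CCNCNCCC match there without overlapping it. A match of letters is a description and was not tested as a binding site.

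The comparison of EKLF-/- with EKLF+/+ asks which of the pathway's genes depend on EKLF in F4/80+ cells. Kit and Socs3 fell, and no member rose. Thus 2 of the 10 genes passed the threshold, an adjusted p under 0.05 in the quasi-likelihood test of edgeR (Benjamini-Hochberg over 12753 genes), as did 20.3% of all genes. With 1 replicate left out, 2 to 4 of the 10 passed, while the genes that passed in all numbered 2595 with every library and 922 to 3619 without one, at most 1026 where an EKLF+/+ replicate or EKLF-/- replicate 3 was left out. Of all genes, 10.6% fell and 9.72% rose. In 6 of the 10 genes the EKLF-/- libraries all lay below the EKLF+/+ libraries, and the libraries did not overlap, in either direction, for 46.3% of all genes. The median log2 fold change of the 10 genes was -0.30, and that of all genes was 0.016.

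Kit, the stem cell factor receptor, was at 194, 213 and 171 CPM in EKLF+/+ replicates 1 to 3 and at 107, 86.4 and 110 CPM in EKLF-/- replicates 1 to 3. No EKLF-/- library reached the lowest EKLF+/+ library. The mean of 193 ± 21.0 CPM (SD, n = 3) went to 101 ± 12.8 (SD, n = 3), or -0.93 ± 0.13 on the log2 scale (fold change ± standard error; edgeR adjusted p = 0.00267).

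Socs3, which blocks Jak kinases and cytokine receptors, was at 10.997, 12.7 and 8.96 CPM in EKLF+/+ and at 3.41, 4.59 and 3.93 CPM in EKLF-/- replicates 1 to 3. It was low in both groups, with 49 to 191 counts per library, and the groups did not overlap. It fell by 1.46 on the log2 scale (standard error 0.21, edgeR adjusted p = 0.00269). Both calls held in all 12 alternative fits, with log2 fold changes from -1.04 to -0.85 for Kit and from -1.61 to -1.35 for Socs3.

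Epor, the erythropoietin receptor, lay at 229, 194 and 233 CPM in EKLF+/+ and at 177, 178 and 179 CPM in EKLF-/- replicates 1 to 3. The groups did not overlap, yet the difference missed the threshold (log2 fold change -0.30, standard error 0.11, adjusted p = 0.0796 by edgeR), and without EKLF-/- replicate 2 it passed at an adjusted p of 0.0457. Jak2 had 140, 139 and 139 CPM in EKLF+/+ against 131, 89.4 and 118 CPM in EKLF-/-. The spread of Jak2 lay in the EKLF-/- group, whose replicate 2 was lowest, and its adjusted p of 0.143 became 0.0490 without EKLF-/- replicate 1.

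Stat5a had 68.0, 69.2 and 60.0 CPM in EKLF+/+ and 57.7, 47.0 and 51.6 CPM in EKLF-/- replicates 1 to 3. These values did not overlap, with a log2 fold change of -0.34 and an adjusted p of 0.0738 by edgeR, or 0.0428 without EKLF-/- replicate 1. Stat5b, its close relative, overlapped between the groups, at 134, 145 and 129 CPM in EKLF+/+ and 138, 99.4 and 127 CPM in EKLF-/-. Stat5a and Stat3 lie end to end on opposite strands of chromosome 11 and overlap, at 100859351 to 100885169 and 100885098 to 100939540 in GRCm38, and the library's strand is not given in the sources used here.

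Pim1, a survival kinase gene induced by Stat5, was at 216, 248 and 230 CPM in EKLF+/+ and 168, 172 and 199 CPM in EKLF-/- replicates 1 to 3. It sat at the threshold. The log2 fold change of -0.37 had an adjusted p of 0.0505 in edgeR's test and of 0.0210 in DESeq2's, and Pim1 was called in 4 of the 12 alternative fits. Bcl2l1, the gene of the survival protein Bcl-xL, was at 91.0 to 103 CPM in EKLF+/+ and 87.6 to 105 CPM in EKLF-/- libraries. These overlap, and their log2 difference was -0.08 with a standard error of 0.11.

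Cish and Socs2, feedback inhibitors of cytokine receptors, were the only 2 of the 10 genes with a positive fold change, and neither passed the test. Cish had 12.9, 18.4 and 14.3 CPM in EKLF+/+ and 15.6, 21.9 and 18.0 CPM in EKLF-/- replicates 1 to 3. Socs2 had 5.18, 5.33 and 5.14 CPM in EKLF+/+ and 8.34, 4.97 and 6.47 CPM in EKLF-/-. In both genes the groups overlapped, with adjusted p = 0.290 for Cish and 0.278 for Socs2 by edgeR.

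**Figure D1:**
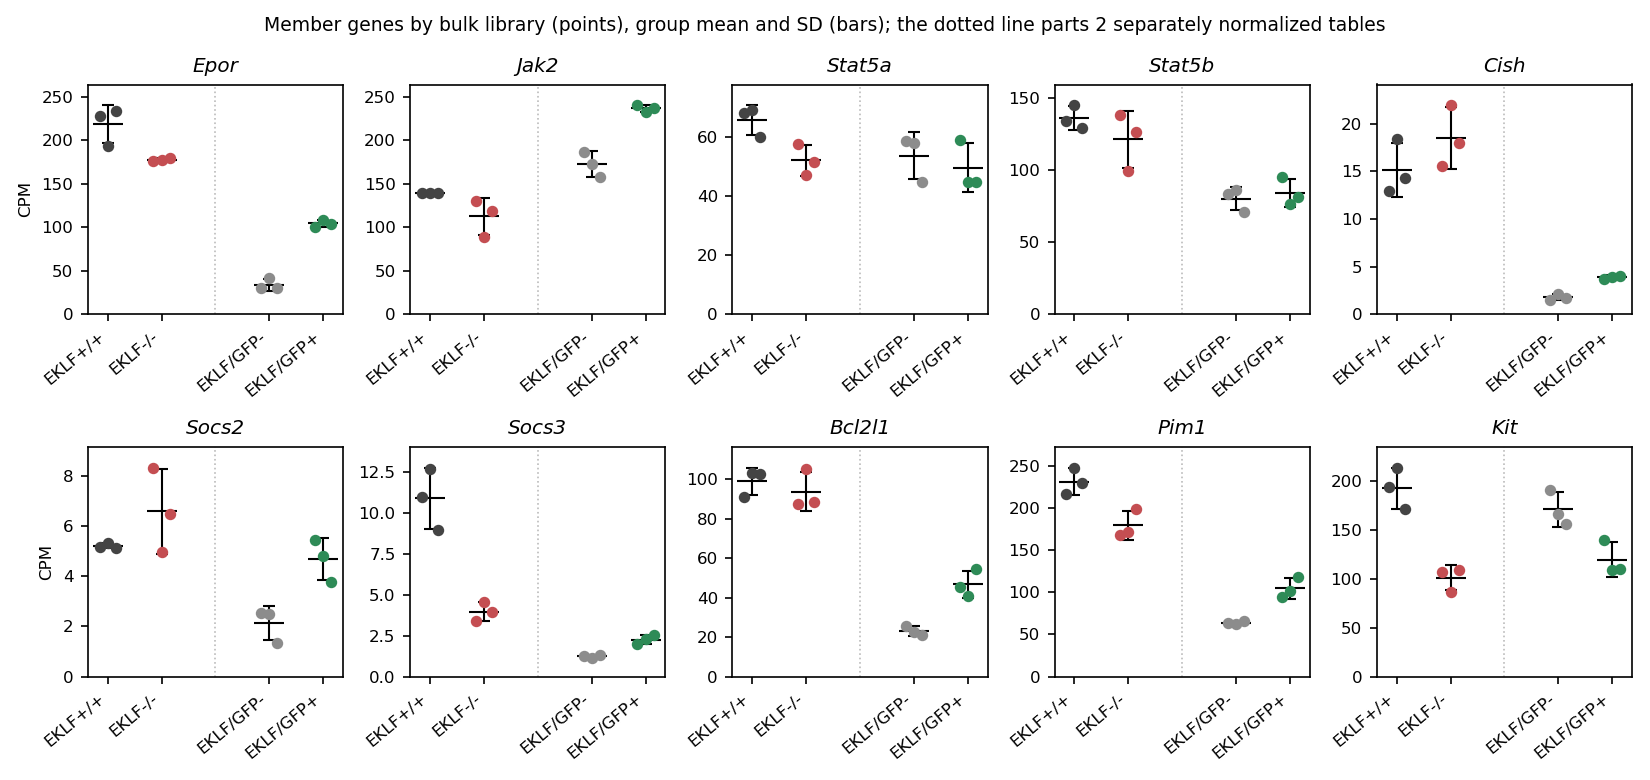
CPM of each member gene (vertical axis, starting at 0) in the 12 bulk libraries, by group, with the group mean and SD as bars and the 2 separately normalized sets on either side of the dotted line. Kit and Socs3 lie lower in all 3 EKLF-/- libraries than in all 3 EKLF+/+ libraries, and Epor is at 101 to 109 CPM in EKLF/GFP+ against 29.7 to 41.6 CPM in EKLF/GFP- libraries.

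Other genes of the pathway were called in both directions in EKLF-/- cells, in a share near that of all genes. Of 57 further genes in 4 lists, 56 were tested, 9 were lower and 4 were higher, against 20.3% of all genes called, with a median log2 fold change of -0.02. Among 17 other Stat5- or erythropoietin-responsive genes, 4 were lower and 1 was higher. The greatest fall was that of Erfe, the erythroblast hormone erythroferrone, from 30.4 ± 3.40 CPM to 2.13 ± 0.29 (SD, n = 3), a log2 fold change of -3.83 (edgeR, adjusted p = 5.38e-06).

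Tfrc, the transferrin receptor, fell by 2.26 on the log2 scale, Osm (oncostatin M) by 1.05 and Ccnd2 (cyclin D2) by 0.98. Podxl, a surface sialomucin, rose by 0.58. Among 25 kinases, adaptors and relays 3 fell and 3 rose, and all those that rose are named here, with log2 fold changes of 0.64 for Lyn, a Src kinase that works with both receptors, 0.64 for Mapk3 (Erk1) and 0.44 for Map2k1 (Mek1). Of 13 attenuators 2 fell and none rose at that threshold, while 7 of the 13 fold changes were above 0. The adaptor gene Sh2b3 (Lnk), a brake on Jak2, had a log2 fold change of -0.47 with adjusted p = 0.0551, and the phosphatase gene Ptpn6 (Shp-1) 0.38 with adjusted p = 0.105, both by edgeR. The calls of Erfe, Tfrc and Ccnd2 held in all 12 alternative fits. That of Lyn was lost without EKLF+/+ replicate 1 (adjusted p = 0.0550), those of Mapk3 and Podxl without any 1 EKLF+/+ replicate or EKLF-/- replicate 3 (up to 0.0848 and 0.0782), that of Map2k1 without EKLF+/+ replicate 1 or 2 or EKLF-/- replicate 3 (up to 0.101) and that of Osm without EKLF+/+ replicate 1 or 2 (up to 0.0851) or with a replicate block (0.0530). Sh2b3 passed in 4 of the 12 alternative fits, with DESeq2 (0.0288), with no filter on low counts (0.0471) and without EKLF-/- replicate 1 (0.0299) or 2 (0.0295), and Ptpn6 without EKLF-/- replicate 1 (0.0377). Kitl had 27 to 68 counts per library and overlapped between the groups, and Epo itself had at most 1 count in any library and was not tested.

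Markers of other cells moved in the same comparison. Summed over 9 measured erythroid marker genes, levels were 9870 to 11545 CPM in EKLF+/+ and 3950 to 6148 CPM in EKLF-/- libraries, and 5 of the 9 genes fell, although EKLF regulates many of them. Summed over 6 myeloid progenitor genes, they were 3791 to 5163 CPM in EKLF+/+ and 5423 to 10888 CPM in EKLF-/- libraries, with 4 of 6 higher. Monocyte genes summed to 306 to 343 CPM in EKLF+/+ and 416 to 668 CPM in EKLF-/- libraries, with 2 of 6 higher, and neutrophil genes to 1597 to 2519 and 2739 to 4957 CPM, with 3 of 7 higher and 1 lower. The 6 endothelial genes summed to 174 to 212 CPM in EKLF+/+ and 105 to 121 CPM in EKLF-/-, with 4 of 6 lower, the mesenchymal genes to 19.7 to 94.7 and 12.4 to 19.7 CPM, with 3 of 5 tested lower, and the 6 mast cell or basophil genes to 33.8 to 46.8 and 40.3 to 64.5 CPM, which overlap, with 1 of 5 tested higher and a median log2 fold change of 1.03. The 11 macrophage genes summed to 298 to 355 and 304 to 475 CPM, which overlap, with 2 of 11 lower. The part of these cells in the falls of Kit and Socs3 was not tested. In bulk RNA, fewer cells of a type and less RNA per cell cannot be told apart.

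The comparison of EKLF/GFP+ with EKLF/GFP- cells asks how the pathway differs between F4/80+ cells that were and were not green for the EKLF reporter. Klf1 RNA was lower, not missing, in EKLF/GFP- libraries. Epor, Jak2, Cish, Socs2, Socs3, Bcl2l1 and Pim1 were enriched in EKLF/GFP+ cells, and Kit was lower. These are 7 higher genes and 1 lower gene of 10 by the same test over 14249 genes, of which 44.7% passed, 18.9% being higher and 25.8% lower. Libraries of the groups did not overlap for the same number of genes, 8 of 10, against 55.7% of all genes. The median log2 fold change was 0.79 for the 10 genes and -0.01 for all genes.

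Epor was at 101, 109 and 104 CPM in EKLF/GFP+ and 30.3, 41.6 and 29.7 CPM in EKLF/GFP- replicates 1 to 3, a 3.08-fold difference (1.62 ± 0.14 on the log2 scale, standard error, edgeR adjusted p = 5.46e-05). Jak2 was at 240, 233 and 237 CPM in EKLF/GFP+ against 187, 173 and 157 CPM in EKLF/GFP- libraries. The kinase gene thus differed less than its receptor's, by 0.46 on the log2 scale (standard error 0.08, adjusted p = 0.00212), and limma on the normalized table of the study did not call it (adjusted p = 0.312 with a pseudocount of 0.5). The 2 Stat5 genes were not called. Stat5a ranged from 44.6 to 59.1 CPM in EKLF/GFP+ and from 44.6 to 58.8 CPM in EKLF/GFP- libraries, and Stat5b from 76.1 to 94.8 and from 70.8 to 86.4 CPM.

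The feedback inhibitors were all scarce and all higher in EKLF/GFP+ cells. Cish was at 3.66, 3.94 and 4.06 CPM in EKLF/GFP+ and 1.55, 2.11 and 1.70 CPM in EKLF/GFP- replicates 1 to 3 (log2 fold change 1.12, standard error 0.19, edgeR adjusted p = 0.00196). Socs2 was at 5.44, 4.81 and 3.78 CPM against 2.55, 2.50 and 1.36 CPM, which gives the same 1.12 on the log2 scale (standard error 0.27, adjusted p = 0.0108). Socs3 was at 1.96, 2.28 and 2.55 CPM against 1.26, 1.13 and 1.31 CPM, which differed by 0.87 on the log2 scale (standard error 0.21, adjusted p = 0.0109). Its level rests on 31 to 64 counts per library.

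The survival genes were higher as well. Bcl2l1 was at 45.5, 40.8 and 54.3 CPM in EKLF/GFP+ against 25.8, 22.4 and 20.9 CPM in EKLF/GFP- libraries (log2 fold change 1.02, standard error 0.13, edgeR adjusted p = 0.000393). Pim1 was at 94.5, 101 and 118 CPM against 63.4, 62.4 and 65.9 CPM (log2 fold change 0.71, standard error 0.09, edgeR adjusted p = 0.000534). In neither gene did a library of one group reach the other group.

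Kit ran the other way. It was at 140, 109 and 110 CPM in EKLF/GFP+ and 191, 166 and 156 CPM in EKLF/GFP- replicates 1 to 3, a difference of -0.52 on the log2 scale (standard error 0.12, edgeR adjusted p = 0.00914). Of these 8 calls, 7 held in all 15 alternative fits, and that of Jak2 in 13 of 15. The libraries of the 2 comparisons are different samples.

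**Figure D2:**
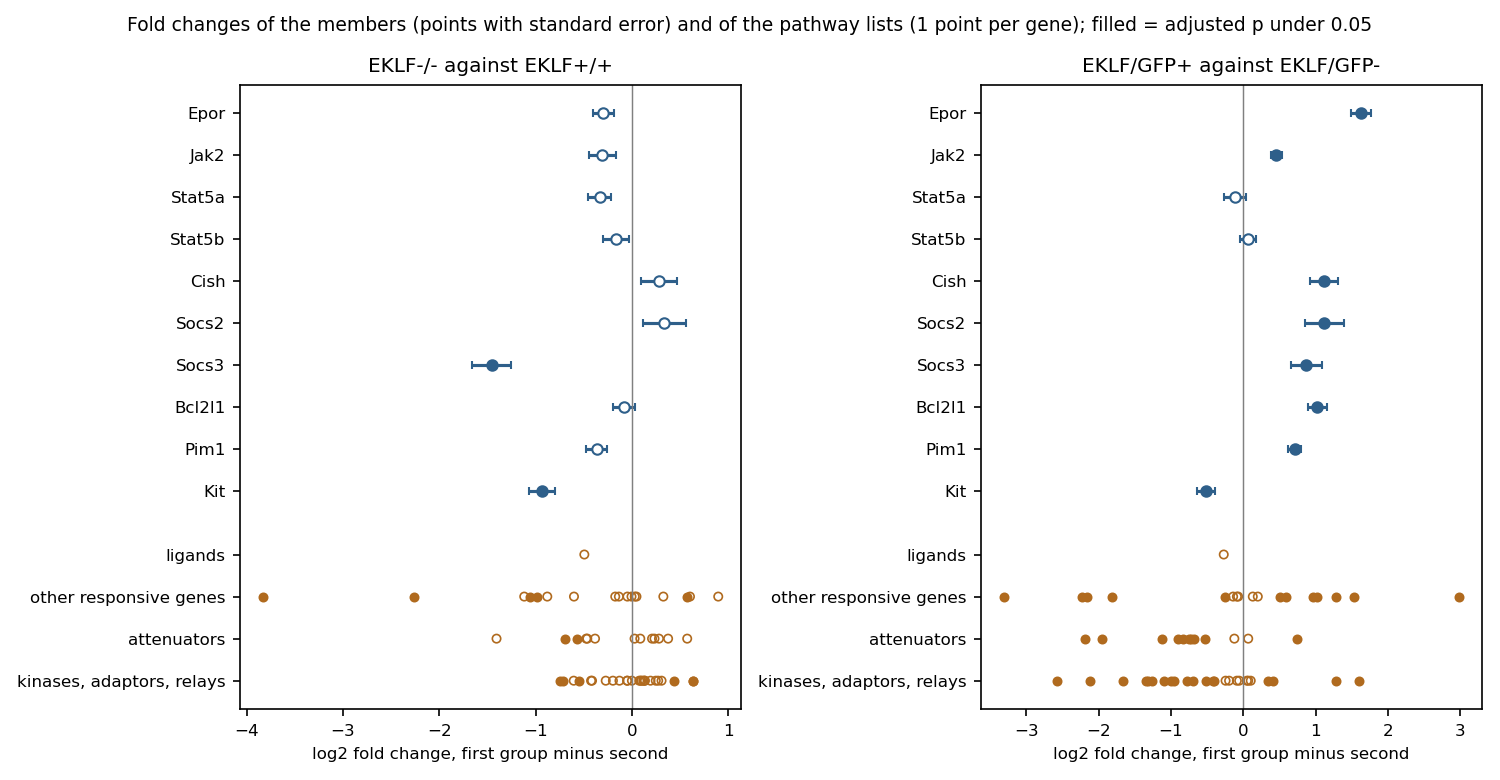
Log2 fold changes (horizontal axis, first group minus second) of the 10 members with standard errors, and of 4 lists of other pathway genes with 1 point per gene, in both bulk comparisons, filled where the adjusted p was under 0.05. In EKLF-/- cells Kit and Socs3 are the filled members, both left of 0, whereas in EKLF/GFP+ cells 7 members lie filled to the right and Kit to the left.

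Around these members, genes that pass on or damp the signal were more often lower than higher in EKLF/GFP+ cells. Of 25 kinases, adaptors and relays 14 were lower and 4 higher, and of 12 attenuators tested 9 were lower and 1 higher, with median log2 fold changes of -0.42 and -0.74, where 25.8% of all genes were lower and 44.7% were called in either direction. Lyn was at 44.2 to 57.9 CPM in EKLF/GFP+ and 120 to 131 CPM in EKLF/GFP- libraries, and Plcg2, a phospholipase of immune receptors, was 5.96-fold lower. Ptpn6 was 3.88-fold lower, Ptprc (the blood cell phosphatase CD45) 4.56-fold lower and Sh2b3 2.19-fold lower. Among the responsive genes 7 rose and 5 fell. Irs2, an adaptor from the relay list, was 3.04-fold higher, Trib3, a pseudokinase gene, 7.92-fold higher from 6 to 92 counts per library, Erfe 2.89-fold higher and Podxl 2.43-fold higher, whereas Serpina3g, a protease inhibitor gene, was 9.92-fold lower and Bcl2 4.72-fold lower. These named changes passed edgeR's test at an adjusted p of at most 0.00546. Kitl did not pass (adjusted p = 0.352), except with the average transcript length as an offset (0.0456), and Epo had at most 1 count per library.

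Cell markers differed strongly between these sorts. The 9 erythroid genes were all higher and summed to 6368 to 7352 CPM in EKLF/GFP+ against 2282 to 2973 CPM in EKLF/GFP- libraries, and all 6 megakaryocyte genes were higher. All 6 monocyte, 7 neutrophil and 6 progenitor genes were lower, the progenitor genes at 394 to 513 CPM against 3333 to 3535 CPM summed. Of the endothelial genes 5 of 6 were lower, and of the lymphoid genes all 4 tested. The 11 macrophage genes summed to 189, 391 and 512 CPM in EKLF/GFP+ replicates 1 to 3 and to 347 to 502 CPM in EKLF/GFP- libraries, which overlap. Of these 11 genes 2 were lower and none higher at the threshold, while 8 fold changes were above 0. Adgre1, which is among them, overlapped between the groups, at 36.6 to 104 and 48.8 to 84.5 CPM. The part of these cells in the members' changes was not tested.

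Salmon's estimates also give levels corrected for transcript length, in TPM (a transcript's share of all transcripts), on which genes can be compared. Only coding transcripts are compared here, because 88.3% to 91.4% of the TPM of Kit, and 15.8% to 26.4% of that of Pim1, lay on transcripts that keep an intron. The choice also leaves out other noncoding transcripts and so lowers Stat5b from 18.4 ± 2.15 TPM over all transcripts in EKLF/GFP+ libraries, Cish from 4.72 ± 0.18 and Socs2 from 3.95 ± 0.89, and over all transcripts Stat5b lay above Stat5a, at 9.29 ± 1.90, without overlap. It turns the rank of Kit, which over all transcripts was highest of the 10 genes, at 94.4 ± 21.1 TPM against 76.2 ± 11.02 for Pim1 in EKLF/GFP+ libraries and at 143 ± 31.3 TPM in EKLF/GFP- libraries. In EKLF/GFP+ libraries Pim1 had the highest coding TPM of the 10 genes, at 56.7 ± 9.43 (SD, n = 3), followed by Epor at 40.1 ± 1.22, Jak2 at 36.8 ± 2.93 and Bcl2l1 at 25.5 ± 4.62. The libraries of Epor, at 38.8 to 41.2, lay just above those of Jak2, at 33.4 to 38.5. Kit at 9.49 ± 1.65, Stat5b at 9.09 ± 1.74 and Stat5a at 7.94 ± 2.11 overlapped, as did Socs2 at 1.51 ± 0.46 and Cish at 1.48 ± 0.36, and Socs3 was lowest at 0.56 ± 0.08. In EKLF/GFP- libraries Epor had 13.4 ± 2.36 coding TPM, below Jak2 at 27.6 ± 3.20 and near Kit at 13.9 ± 1.16 and Bcl2l1 at 13.55 ± 1.40, so that the receptor's level stood beside that of its kinase in the one sort and below it in the other.

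Of the estimated counts of Kit, as opposed to its TPM, transcripts that keep an intron held 26.5% to 35.8%. Its 2 coding transcripts differ by 12 bases at the end of exon 9, at chr5:75639147-75639158 of GRCm38 on the plus strand, which Kit-201 has and Kit-204 lacks, and in their first bases. Both forms, known as long and short Kit, differ just outside the membrane. The bases around the difference are shown with the extra bases in capitals, since they set these forms apart.
Kit-201: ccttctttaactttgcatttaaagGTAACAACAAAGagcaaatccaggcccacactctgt
Kit-204: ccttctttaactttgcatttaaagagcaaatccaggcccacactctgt
Kit-201 took 47.8%, 51.8% and 39.1% of the counts of both forms in EKLF/GFP+ and 66.0%, 58.0% and 45.9% in EKLF/GFP- replicates 1 to 3. The groups overlapped, and the difference was not past the spread between libraries (two-sided exact permutation test, p = 0.3, where 0.1 is the smallest p that 3 against 3 allows).

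Epor-201 held 99.0% to 99.9% of the Epor counts and Jak2-204 93.7% to 99.3% of the Jak2 counts. Shares were compared for the leading transcript of each of the 10 genes alone, and among these that of Cish did not overlap, with Cish-204 at 66.1%, 56.1% and 60.5% of its counts in EKLF/GFP+ and 31.0%, 51.7% and 49.0% in EKLF/GFP- replicates 1 to 3 (exact permutation p = 0.1, the smallest possible, over few counts). For Pim1 the leading transcript kept an intron, at 38.3% to 42.4% and 28.3% to 41.9% of counts.

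Single cells show which cells hold Epor and which hold the rest of its pathway. The library held 3096 barcodes, 3093 of which passed a minimum of 200 detected genes, with a median of 18605 counts. Cells fell into 14 clusters, formed without the member and pathway genes and named only from marker genes, in which 1457 cells were macrophage-like (clusters 0, 1, 2 and 4), 621 erythroid-like (clusters 5, 7 and 8), 115 mast cell- or basophil-like, 283 monocyte-like, 220 neutrophil-like, 102 hepatoblast-like, 88 megakaryocyte-like and 83 endothelial-like. Adgre1, the gene of the protein selected for, was at 3.67 to 7.97 counts per 10000 in the macrophage-like and at 0.30 to 0.45 in the erythroid-like clusters. Cluster 5 was led by genes such as Podxl and had little globin, cluster 7 by genes such as Hemgn and Slc4a1, and cluster 8 by globin genes with a median of 1263 detected genes. Cluster 9, with 124 cells, was given no name, because it had macrophage markers (74.5 counts per 10000 summed over 11 genes, against 113 in cluster 0) while erythroid genes such as Tmcc2 and Slfn14 led it. Scrublet called 0 of 3093 cells doublets, so none was removed. With 1 library there is no test, levels carry exact Poisson and shares Wilson 95% intervals, and both cover counting error only.

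Per 10000 counts, Epor was highest in erythroid-like clusters 5 and 7, then in cluster 9 and in megakaryocyte-like cells. The erythroid-like clusters held 73.7% of all Epor counts from 20.1% of the cells. Cluster 5 had 0.82 Epor counts per 10000 (0.77 to 0.87) with a count in 93.3% of cells (89.4% to 95.9%), and cluster 7 had 0.73 (0.66 to 0.81) in 78.8%. Cluster 8, the cells richest in globin, had 0.096 (0.065 to 0.136) in 13.7% of cells. Cluster 9 had 0.56 (0.45 to 0.70) in 45.2% of cells at a median of only 8314 counts, and megakaryocyte-like cells had 0.30 (0.24 to 0.36) in 59.1%.

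Cells were thinned to 5000 counts each to compare shares at 1 depth, leaving out 56 shallower cells. The share with Epor was then 34.3% in cluster 5, 30.6% in cluster 7, 23.9% in cluster 9, 15.1% in megakaryocyte-like cells and 5.46% in cluster 8. The order of these 5 levels was kept. Cluster 5 and cluster 7 do not differ beyond their intervals at this depth, which were 28.6% to 40.5% and 24.6% to 37.4%.

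Macrophage-like cells had a low Epor level, at 0.095 per 10000 (0.083 to 0.107) with a count in 13.9% of 1457 cells, although being many they held 13.2% of all Epor counts, and they differed among themselves. Cluster 0, led by Cd5l, Marco and Vcam1, had 0.125 (0.104 to 0.149), and cluster 4, led by Marco and Cd5l at a median of 9624 counts, 0.146 (0.105 to 0.196). Cluster 1, led by Fcrls and Cx3cr1, had 0.066 (0.050 to 0.086), and cluster 2 had 0.046 (0.028 to 0.072). Thinned to 5000 counts, 7.14% and 9.03% of cells had Epor in clusters 0 and 4 against 2.76% and 3.32% in clusters 1 and 2 and 0.463% in neutrophil-like cells. Erythroid RNA moved with this difference. Klf1 was at 0.027 per 10000 in clusters 0 and 4 and 0.015 in clusters 1 and 2, Hemgn at 0.067 and 0.075 against 0.039 and 0.029, and Alas2 at 0.095 and 0.068 against 0.052 and 0.049, and its part in the difference was not tested.

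Free RNA in the droplets can add to such values, but it was not measured here and its part was not tested. For comparison, neutrophil-like cells had 0.009 counts per 10000 (0.003 to 0.022) in 2.27% of cells at a median of 22252 counts. Monocyte-like cells had 0.017 (0.009 to 0.029) in 3.53% at 23865 counts. Macrophage-like cells of cluster 0, at a median of 20922 counts, were above both. Per Klf1 count there were 0.57, 0.45 and 0.27 Epor counts in erythroid-like clusters 5, 7 and 8, 0.63 in neutrophil-like and 0.63 in monocyte-like cells, and 3.17 to 5.38 in the 4 macrophage-like clusters and 5.06 in cluster 9. Outside the erythroid-like clusters these ratios rest on few Klf1 counts. There were 6 to 27 in the macrophage-like clusters, 16 in cluster 9, 8 in neutrophil-like and 19 in monocyte-like cells. Per count of Alas2, a haem synthesis gene, there were 4.02, 0.18 and 0.014 Epor counts in clusters 5, 7 and 8, and the 0.95 to 2.15 of the macrophage-like clusters and 0.91 of cluster 9 lay within that range. So did the 0.38 of neutrophil-like and 0.50 of monocyte-like cells, which rest on 5 and 12 Epor counts. The part of erythroid RNA in the Epor counts of other clusters was not tested.

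**Figure D3:**
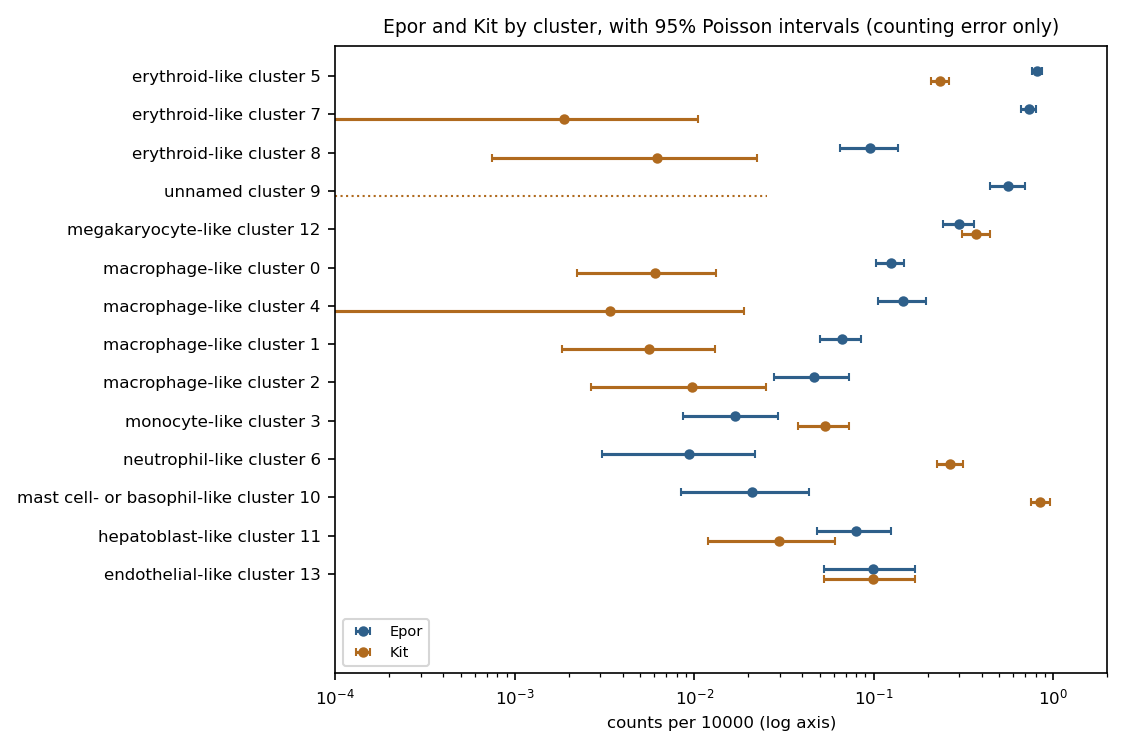
Epor and Kit counts per 10000 (horizontal log axis) in the 14 single-cell clusters, with 95% Poisson intervals, a dotted line marking the interval of a count of 0 and intervals running to 0 cut off at the axis. Epor is highest in erythroid-like clusters 5 and 7 and Kit in mast cell- or basophil-like cells, and the Epor level of macrophage-like clusters 0 and 4 lies above that of neutrophil-like cells.

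How often counts of Epor, its kinase and a Stat5 gene were seen in the same cell depended on depth, and a missing count does not show that the RNA is missing. With all counts, 123 of 240 cells of cluster 5 (51.3%, 45.0% to 57.5%) had counts of Epor, Jak2 and Stat5a or Stat5b, and among megakaryocyte-like cells 34 of 88 (38.6%, 29.1% to 49.1%) did. In cluster 7 it was 19 of 198 (9.60%), and in macrophage-like cells 26 of 1457 (1.78%). Such shares follow depth, whose medians were 46857, 36553, 25119 and 14099 counts. Thinned to 10000 counts, all of them were seen in 9 of 228 cells (3.95%) of cluster 5, in 3 of 190 (1.58%) of cluster 7, in 1 of 83 megakaryocyte-like cells, in 1 of 43 cells of cluster 9 and in 5 of 1019 macrophage-like cells (0.49%), so the shares at full depth cannot be set beside each other.

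Jak2 had counts in every cluster, as did both Stat5 genes. Jak2 ran from 0.068 per 10000 in cluster 8 to 0.51 in endothelial-like cells, with 0.23 in cluster 5, 0.28 in cluster 7 and 0.12 to 0.18 in macrophage-like clusters. Stat5a had 0.235 per 10000 (0.208 to 0.265) in cluster 5 but 0.011 (0.004 to 0.025) in cluster 7 and 0.025 (0.011 to 0.049) in cluster 8. Its highest level was 0.371 in megakaryocyte-like cells, and in macrophage-like clusters it was at 0.085 to 0.106. Stat5b was at 0.289 in cluster 5, 0.077 in cluster 7 and 0.034 in cluster 8, its lowest level, and at 0.125 to 0.388 in all other clusters, so that cluster 7 had the receptor and kinase at levels like those of cluster 5 with much less of either Stat5 message.

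The survival genes were lowest in cluster 5 among the erythroid-like clusters. Bcl2l1 was at 0.117 (0.099 to 0.139) in cluster 5, 0.587 (0.524 to 0.656) in cluster 7 and 2.42 (2.25 to 2.59) in cluster 8, in 40.4%, 62.1% and 80.3% of cells. Pim1 was at 0.464 (0.425 to 0.505), 2.25 (2.13 to 2.38) and 2.48 (2.31 to 2.65) per 10000, in 76.7%, 93.4% and 76.5% of cells, and clusters 7 and 8 do not differ beyond their intervals. Cluster 9 had the highest Pim1 level of all, 7.75 (7.30 to 8.21) in 98.4% of cells, and 17.1% of all Pim1 counts from 4.01% of the cells. Its Bcl2l1 level was 1.22 (1.05 to 1.41), and no cell in it had Kit.

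The feedback inhibitors were rare in single cells and were not in the same places. Cish, with 156 counts in all, was highest in cluster 7 at 0.077 per 10000 (0.055 to 0.105) and had 0.003 to 0.014 in macrophage-like clusters. Socs2 was highest in endothelial-like cells at 0.183 (0.117 to 0.272) and in macrophage-like cluster 0 at 0.152 (0.129 to 0.178), and cluster 0 held 33.3% of its counts. Socs3, with 93 counts, was highest in monocyte-like cells at 0.041 (0.027 to 0.059) and in macrophage-like cluster 1 at 0.031, which held 31.2% and 30.1% of its counts, while cluster 5 had 0.003.

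Kit shared cluster 5 and the megakaryocyte-like cells with Epor and was otherwise found in other cells. Cluster 5 held 51.0% of all Epor and 29.9% of all Kit counts, and megakaryocyte-like cells 5.63% and 14.4%. The Kit level was highest in mast cell- or basophil-like cells, at 0.852 per 10000 (0.755 to 0.957) in 81.7% of cells. This cluster also holds progenitor RNA, with Mpo in 92.2% of cells and the mast cell protease gene Cpa3 in 33.0%, and its 6 progenitor genes summed to 29.1 per 10000 against 4.83 for the 6 mast cell or basophil genes. Next came megakaryocyte-like cells at 0.373, neutrophil-like cells, which also hold progenitor genes such as Elane, at 0.267, and cluster 5 at 0.235. The last 2 do not differ beyond their intervals. Cluster 7 had 1 Kit count in 198 cells and cluster 9 had 0 in 124, which allows up to 2.42% of cells with a count (3 counts) and sets no limit on cells that express it. Macrophage-like cells had Kit in 0.96% of cells. Epor and Kit were seen together in 95 of 240 cells of cluster 5 and in 35 of 88 megakaryocyte-like cells, or, thinned to 10000 counts, in 26 of 228 and 6 of 83.

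**Figure D4:**
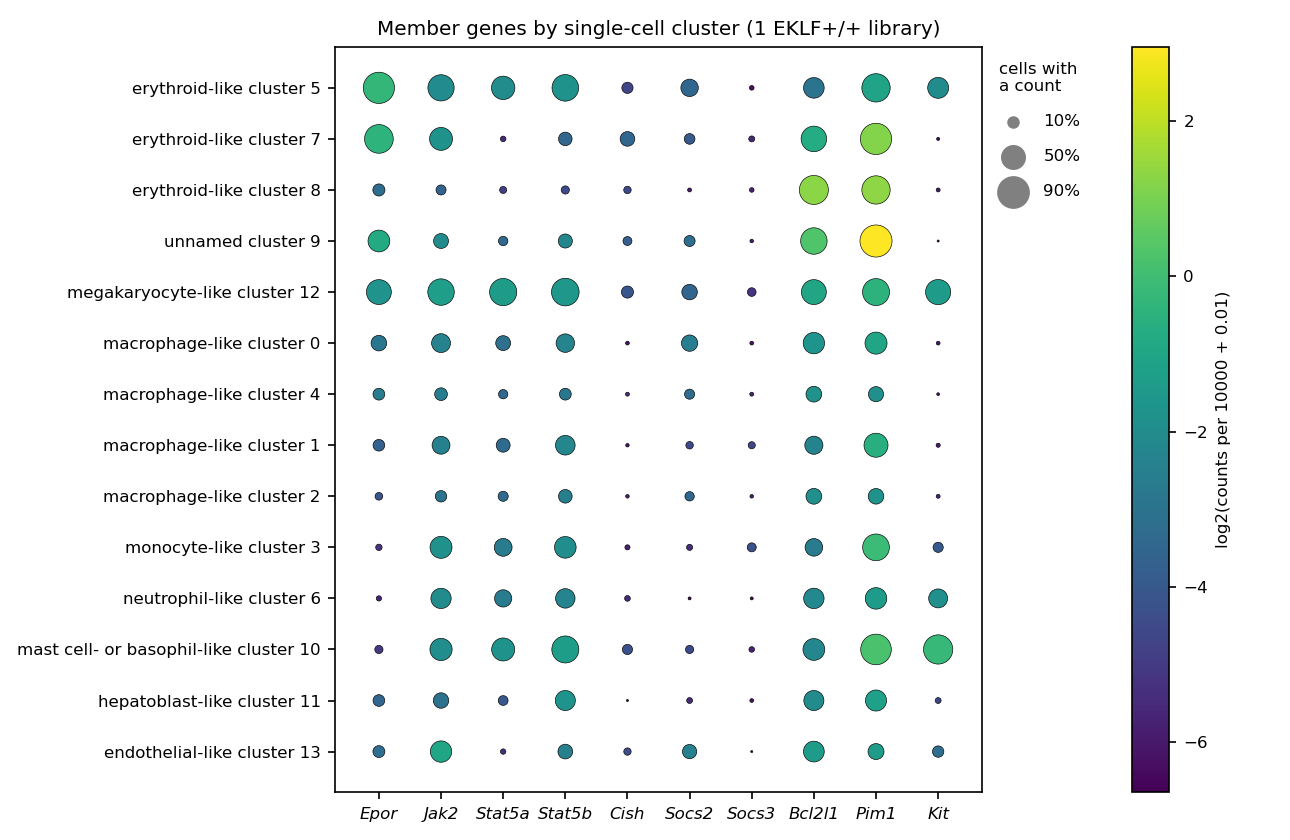
Level of the 10 genes in 14 clusters, with the area of a dot giving the percent of cells with a count and its colour the log2 of counts per 10000 plus 0.01. Epor and Jak2 are shared by erythroid-like clusters 5 and 7, the Stat5 genes and Kit are high in cluster 5, in megakaryocyte-like and in mast cell- or basophil-like cells, and Bcl2l1 and Pim1 are highest in clusters 8 and 9.

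Of the ligands, only Kitl was detected in single cells. Epo had 0 counts in the 3093 cells, which allows up to 0.097% of cells with a count (3 counts), again no limit on expressing cells. Kitl was highest in hepatoblast-like cells, at 0.881 per 10000 (0.766 to 1.01), and endothelial-like cells, at 0.806 (0.660 to 0.975), and was at 0.217 (0.189 to 0.248) in macrophage-like cluster 0 against 0.00957 in erythroid-like cluster 5. Most brakes and relays were lower in erythroid-like than in macrophage-like clusters. Of 13 attenuators 11, and of 25 kinases, adaptors and relays 19, were lower in all 3 erythroid-like clusters than in all 4 macrophage-like clusters, as were 38.3% of 11209 genes with at least 0.1 counts per 10000 in some cluster. So were 4 of 12 other responsive genes and 0 of 8 members at that level. Lyn was at 2.17 to 2.85 per 10000 in macrophage-like and 0.18 to 0.26 in erythroid-like clusters, Ptpn6 at 1.54 to 1.77 and 0.14 to 0.20, and Sh2b3 at 0.47 to 0.66 and 0.04 to 0.10. Irs2 and Foxo3 were higher in all 3 erythroid-like clusters.

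Over the 14 clusters, the genes whose log2 levels were most like those of Epor, among 5399 genes, were Pithd1, Ell2, Ermap, Cpox and Pigq, with Pearson's r of 0.87 to 0.89. Those most like Kit were Myb, Ubash3a, Runx3, Pdcd4 and Kdm5b, with r of 0.89 to 0.95. Among the members, r with Epor was highest for Cish (0.65) and was 0.22 for Jak2, -0.03 for Stat5a and -0.11 for Stat5b, and r with Kit was highest for Stat5a (0.75) and Stat5b (0.64). The points are clusters of 1 library that differ in depth, and r is a description.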

How the data were processed

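F4/80+ cells of E13.5 FL were measured in 12 bulk libraries and 1 single-cell library. For EKLF+/+ and EKLF-/- cells the authors deposited counts of reads per gene, with STAR and HTSeq among the tools in the submitters' processing notes. Rows that name no gene held most reads (38.7% to 44.2% without a feature, 24.8% to 29.8% not uniquely aligned) and were left out. For EKLF/GFP+ and EKLF/GFP- cells the deposited Salmon files hold estimated counts and TPM per transcript. The estimated counts were summed per gene through the GENCODE transcript names and rounded, and the authors' normalized counts, a signal scaled by size factors, served only in the limma alternative. The deposited single-cell matrix holds estimated counts per gene and cell from alevin, 95.7% of whose non-zero values are whole. 5 columns of other libraries in 1 table and the authors' fold changes were not used.

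A gene needed 10 counts or more in 3 or more libraries. Genes that passed were fitted with edgeR 4.0.16 (TMM, quasi-likelihood test, Benjamini-Hochberg adjustment, threshold 0.05), each comparison on its own 6 libraries. DESeq2 1.42.0 and limma 3.58.1 (R 4.3.3) were alternatives, as were other filters, scalings, a replicate block and leaving out each replicate. On simulated counts edgeR's test called 83 of 100 genes changed 2-fold and 99 of 100 changed 4-fold among 12616 genes at the depth of the EKLF-/- comparison, and 76 and 98 of 100 among 14019 at that of the EKLF/GFP comparison. Each simulation also gave 14 false calls, and its counts were drawn with the spread that edgeR fitted to these data. Labels give no more than replicate numbers, so p-values measure the spread between these samples.

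Cells with at least 200 detected genes were clustered with Seurat 5.3.0 (4000 variable genes less 19 genes of the lists, 30 components, resolution 0.8) and named from marker lists. Levels are summed counts per 10000. Doublets were searched for with Scrublet in scanpy 1.11.5. Gene names from the pathway lists follow a rule, up to 4 greatest rises and 4 greatest falls per bulk comparison among genes that passed, with Epo, Kitl, Lyn, Sh2b3 and Ptpn6 always given. Foxo3 was named after its values were seen, and a split of the single cells by erythroid genes is not reported here. The members, lists and tests were chosen with earlier results of these data known.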

Additional observations from a re-analysis of the deposited data

How the results depend on the processing

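Among single genes, 597 of the values under other settings kept their direction and side of the threshold, 13 passed and 17 failed where they had not, and 3 changed sign, none of them past a threshold. These were log2 fold changes of Adgre1 in EKLF-/- cells (-0.050 without EKLF-/- replicate 2, and up to 0.21 with another replicate left out), of Stat5b in EKLF/GFP+ cells (-0.025 without EKLF/GFP- replicate 3, up to 0.15) and of Adgre1 there (-0.10 without EKLF/GFP+ replicate 3, up to 0.57). In EKLF-/- cells 2 members were called, 2 to 4 with 1 replicate left out (4 without EKLF-/- replicate 1 or 2), and of all genes 2595 were called, 922 to 3619 with 1 replicate left out (922 without EKLF+/+ replicate 1, 1026 without replicate 2, 1002 without replicate 3 and 1001 without EKLF-/- replicate 3). In the EKLF/GFP comparison 8 members were called in all fits but limma, which called 7. Same-numbered libraries did not deviate together (correlations -0.091 to 0.056), so the numbers do not pair the samples. With a replicate block 2 and 8 members were called, and 1901 and 5783 of all genes against 2595 and 6369 without it. The members whose leading transcript had shares apart numbered 1 with all libraries and 1 to 3 with 1 left out, settings added after seeing the data.

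The share of cells with Epor follows depth. Thinned to 5000 and 10000 counts it was 24.6% and 40.6% in erythroid-like, 5.34% and 8.93% in macrophage-like, 23.9% and 27.9% in cluster 9, 15.1% and 26.5% in megakaryocyte-like and 0.463% and 0.535% in neutrophil-like cells. It was 69.9% in erythroid-like cells with at least 1000 detected genes. At the lowest resolution tried no megakaryocyte-like cluster was separate, so it has no value there.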

Other observations

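Cluster 9 held genes of more than 1 kind of cell beside its high Pim1. Adgre1 was at 5.04 counts per 10000 (4.68 to 5.42), within the range of the macrophage-like clusters, Slc4a1, the red cell anion exchanger, at 5.32 (4.95 to 5.71) against 0.24 in macrophage-like cluster 0, and Klf1 at 0.111. Of the pathway's brakes and relays, Lyn was at 2.17 (1.93 to 2.42) and Ptpn6 at 1.55 (1.35 to 1.77), both near the macrophage-like clusters, while Foxo3, at 0.872 (0.727 to 1.04), was near erythroid-like clusters 7 and 8. Its median of 8314 counts per cell was below those of erythroid-like clusters 7 and 8, at 25119 and 17628, and near those of macrophage-like clusters 2 and 4, at 9537 and 9624. Whether its droplets held 1 cell or several is not known. Scrublet called 0 of its 124 cells, but it also called 0 of all 3093 cells, so its result cannot decide this.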
